A study of Mus musculus with 25 samples.

Results

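Pax3, Pax7, Six2, Six4, Eya1, Eya2, Eya4, Lbx1 and Meox2 are 9 regulators that act early in the formation of limb and trunk muscle. They were chosen by name, with earlier results of these data known. They were located in the curated RefSeq annotation of the mouse assembly GRCm38 (mm10), where they are 9 of 26182 genes and 9 of 21000 protein-coding genes. Chromatin of primary myoblasts, the cultured precursors of muscle fibers, was examined by chromatin immunoprecipitation and sequencing (ChIP-seq) for Spin1 and for H3K4me3. The cells came from limb muscle of C57BL/6 mice (C57BL/6 N in the study's methods) at an age of 10 days and were enriched by preplating, and the labels name no gene deletion or treatment for them. A Spin1 antibody gave 1 library and a Diagenode antibody gave the other, whose label reads anti-H3K4me and whose title reads H3K4me3. Input, DNA of the chromatin before precipitation, served as the control of the peak calls. Replicates were lacking, which leaves the spread between cultures unknown, and no difference below was tested. All counts, widths and positions are descriptions of these 2 peak lists.

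Pax3 and Pax7 are paired-box transcription factors that mark the precursors of skeletal muscle, and Pax7 stays on in satellite cells, the stem cells of adult muscle. Six2, Six4 and their relatives bind DNA through a homeodomain and work with Eya proteins, which are coactivators with a phosphatase domain, while Dach proteins act as corepressors in the same network. Lbx1 is a homeobox factor of the precursors that migrate into the limb, and Meox2 is a homeobox factor needed for normal limb muscle. H3K4me3 is a histone mark of active and poised promoters, often of those rich in CpG dinucleotides, and Spin1 is a reader protein that binds it.

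Each of the 9 genes carried Spin1 and H3K4me3 peaks at the promoter, which was TSS±1 kb of any curated transcript with an overlap of at least 1 bp. Among all protein-coding genes a Spin1 peak was found at the promoter of 56.7% (95% Wilson interval from 56.0 to 57.4%), an H3K4me3 peak at 68.0% (67.4 to 68.6%) and both at 56.7% (56.0 to 57.3%). H3K4me3 without Spin1 was seen at 11.3% (10.9 to 11.8%) of all promoters and at 0 of the 9. The intervals cover counting error only. CpG content moved with this count. In the 1 kb around the TSS the 9 promoters held from 3.6 CpG per 100 bases at Meox2 to 12.1 at Six2, with a median of 6.4 against 4.7 over all protein-coding genes. Of the 12272 genes with a CpG content as high as that of Meox2 or higher, 86.7% had both peaks and 11.7% had H3K4me3 alone. The part of CpG content in the count of 9 was not tested. Because the genes were chosen with earlier results of these data known, the count is a description.

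RefSeq promoter sequences matched 5 of the 9 genes, Pax7, Six2, Six4, Eya4 and Meox2. Pax3, Eya1, Eya2 and Lbx1 did not match. The 100 bases before the outermost TSS of these 5 genes are shown because they lie inside the Spin1 peak at each promoter, and because they differ in the dinucleotide that goes with H3K4me3 at most promoters. They are written 5′ to 3′ in the direction of transcription on GRCm38.p6, with each CpG in capitals.
Pax7 promoter, chr4:139832969-139833068, minus strand: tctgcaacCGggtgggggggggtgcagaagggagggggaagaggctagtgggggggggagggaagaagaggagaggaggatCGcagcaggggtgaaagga
Six2 promoter, chr17:85688255-85688354, minus strand: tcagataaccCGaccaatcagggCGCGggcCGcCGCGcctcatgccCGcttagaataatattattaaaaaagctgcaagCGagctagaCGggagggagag
Six4 promoter, chr12:73113426-73113525, minus strand: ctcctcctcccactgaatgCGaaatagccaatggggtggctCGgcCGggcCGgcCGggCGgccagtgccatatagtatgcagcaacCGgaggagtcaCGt
Eya4 promoter, chr10:23349944-23350043, minus strand: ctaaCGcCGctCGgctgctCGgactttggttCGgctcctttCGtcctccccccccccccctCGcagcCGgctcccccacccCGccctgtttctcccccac
Meox2 promoter, chr12:37108440-37108539, plus strand: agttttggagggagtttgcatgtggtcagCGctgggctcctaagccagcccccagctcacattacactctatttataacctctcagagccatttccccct

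Six2 and Eya4 each held 9 CpG in these 100 bases and Six4 held 8, against a median of 3 over all RefSeq promoters. Pax7 held 2 and Meox2 held 1, and 20.7% of the promoters had fewer than Meox2. Spin1 peaks therefore lay over stretches on either side of the median. Pax7 was an example of a promoter with few CpG directly before the TSS and more around it, since its value for the 1 kb around the TSS was 7.8 CpG per 100 bases and exceeded that of 78.5% of protein-coding genes.

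Pax3 and Pax7 are paralogues with much the same DNA-binding domains, yet their promoters were occupied to very different extents. At Pax7, on the minus strand of chromosome 4 from 139738081 to 139832968, H3K4me3 formed a single peak of 17266 bp from 139819433 to 139836698. It began 3730 bp upstream of the TSS and reached 13535 bp downstream, into intron 4, and covered 14.3% of the gene. This domain was wider than 99.9% of the 13020 H3K4me3 domains at promoters of protein-coding genes. It contained 6 Spin1 peaks, of which the one at the TSS measured 5404 bp and the others lay 3140 bp upstream and 5473, 6430, 9156 and 10854 bp downstream (peak centers).

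Pax3, on the minus strand of chromosome 1 from 78101267 to 78197136, had an H3K4me3 domain of 5384 bp and a single Spin1 peak of 1325 bp within it. This Spin1 peak ran from 41 to 1365 bp downstream of the TSS, so that the TSS itself lay outside it, the only such case among the 9 genes. Only 13.6% of Spin1 peaks at promoters were narrower, and its score was 546.09. A score is the negative log10, multiplied by 10, of the p-value that the peak caller MACS gave for the comparison with input, and it is used here only to rank peaks within 1 list. Spin1 covered 24.6% of the Pax3 domain and 61.2% of the Pax7 domain, or 1325 and 10566 bp.

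Six2 and Six4, both homeobox factors, had wide domains. Six2, on the minus strand of chromosome 17 from 85684268 to 85688254, is a short gene with 2 exons and lay entirely inside its H3K4me3 domain of 8161 bp. Its single Spin1 peak of 4856 bp began 1497 bp upstream of the TSS, ended 3358 bp downstream and left the last part of the gene unoccupied. Six4, on the minus strand of chromosome 12 from 73099609 to 73113425, has TSSs at 73113245 and 73113425, and both lay in the same peaks. Its H3K4me3 domain measured 7337 bp, its Spin1 peak 3587 bp, and the domain covered 46.9% of the gene. Spin1 thus covered 59.5% of the Six2 domain and 48.9% of the Six4 domain.

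Eya1, Eya2 and Eya4, the cofactors of Six2, Six4 and their relatives, are long genes of 141242, 176700 and 246982 bp, and their promoters ranged from the weakest Spin1 peak of the group to one of the most completely covered domains. At Eya4, on the minus strand of chromosome 10 from 23102962 to 23349943, the H3K4me3 domain measured 6103 bp and held Spin1 peaks of 4219 and 852 bp, separated by 141 bp. They covered 83.1% of the domain, a share higher than in 89.9% of the promoter domains with both peaks. At Eya1, on the minus strand of chromosome 1 from 14168958 to 14310199, the domain measured 4971 bp and the Spin1 peak 2381 bp, which is 47.9% of it.

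Eya2, on the plus strand of chromosome 2 from 165595028 to 165771727, has 3 annotated TSSs. Only the first, at 165595028, lay within 1 kb of a peak of either library, and the TSSs at 165630345 and 165655298 had neither. Its H3K4me3 domain of 2414 bp was the narrowest of the 9, with 27.2% of promoter domains narrower still. Its Spin1 peak of 719 bp and score 198.29 covered 29.8% of the domain and was narrower than all but 2.9% of Spin1 peaks at promoters. This occupied stretch had the highest CpG density of the group all the same, as described below.

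Lbx1 and Meox2, the remaining homeobox genes, differed in the same way as Pax7 and Pax3 did. Lbx1, on the minus strand of chromosome 19 from 45232684 to 45236841, lay entirely inside an H3K4me3 domain of 9912 bp, wider than 99.1% of promoter domains. Spin1 peaks of 5504, 1718 and 1485 bp followed each other with gaps of 182 and 12 bp and covered 87.8% of it, the highest share of the 9. The latter peaks lay downstream of the 3′ end of the gene. Meox2, on the plus strand of chromosome 12 from 37108540 to 37179534, had a domain of 6907 bp, which also reached the promoter of the neighbouring gene Gm29007. Its Spin1 peaks of 2043 and 721 bp covered 40.0% of the domain.

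**Figure D1:**
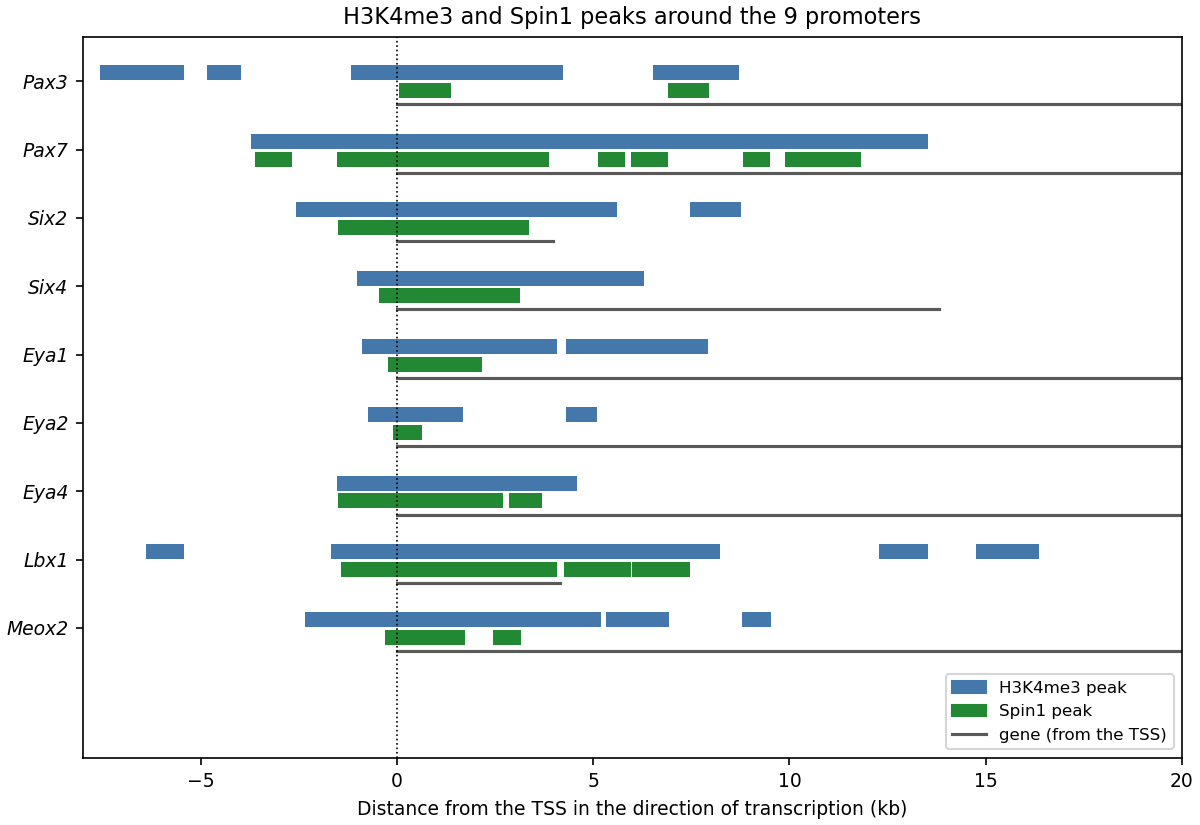
H3K4me3 peaks (blue) and Spin1 peaks (green) around the TSS of each of the 9 genes, with the distance in kb on the horizontal axis (negative values upstream) and the gene as a dark line. Pax7 has the widest H3K4me3 domain, of 17266 bp with 6 Spin1 peaks, and Eya2 the narrowest, of 2414 bp with a Spin1 peak of 719 bp.

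In all 9 genes the peak of each library at the promoter reached farther downstream of the TSS than upstream. The H3K4me3 domains ended between 1673 bp (Eya2) and 13535 bp (Pax7) downstream, with a median of 5206 bp against 2177 bp over the 11903 protein-coding genes with both peaks. The Spin1 peaks at the promoter ended between 627 bp (Eya2) and 4073 bp (Lbx1) downstream, with a median of 2713 bp against 1405 bp. On the upstream side the median H3K4me3 border lay 1521 bp before the TSS of the 9 genes and 1151 bp before that of all genes. The median upstream Spin1 border lay 458 bp before the TSS in the 9 genes and 771 bp in all. So the added length of both kinds of peak lay mainly on the side of the gene body, and at Pax3, Eya1, Eya2, Six4 and Meox2 the Spin1 peak began less than 500 bp before the TSS or after it.

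Order by Spin1 score was possible for only a part of the group. The scores of Pax7, Six2, Six4, Eya4 and Lbx1 were 3100, a value at which scores accumulate and which was reached or exceeded by 30.9% of all Spin1 peaks, so these 5 have no order. Below them stood Eya1 with 1303.94, Meox2 with 1213.53, Pax3 with 546.09 and Eya2 with 198.29. The median over the 10797 Spin1 peaks at promoters of protein-coding genes was 2811.7, and 27.1% of them scored lower than the peak at Eya1 and 5.6% lower than that at Eya2. The 5 genes at 3100 also had the widest Spin1 peaks, from 3587 to 5504 bp, and the other 4 ranged from 719 to 2381 bp. Since the score grows with width and with depth, this order is no measure of how much Spin1 is bound per base. Without replicates it is not known which neighbours in the order differ. Every H3K4me3 peak at the 9 promoters had a score of 3100, as did or exceeded 45.2% of all H3K4me3 peaks.

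The H3K4me3 domains of the group were wide, and Spin1 covered a smaller part of most of them than is usual. Their median width was 6907 bp, against 3152 bp over all 13020 promoter domains, and 6 of the 9 (Pax7, Lbx1, Six2, Six4, Meox2 and Eya4) belonged to the widest 10%, which began at 5571 bp. Pax3 lay just below this limit with 5384 bp. The share covered by Spin1 had a median of 48.9% in the 9 domains and of 66.1% in the 10719 promoter domains with both peaks. Only Eya4 and Lbx1 lay above the latter value. In the widest 10% of all domains the median share was 65.3%, and the part of width in the shares of the 9 genes was not tested.

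Eya2, Pax3 and Meox2 had the lowest shares, 29.8, 24.6 and 40.0%, and only 2.3, 1.1 and 6.8% of domains had a lower one. This order depends on where a domain ends. With H3K4me3 peaks less than 500 bp apart joined, the share was 27.0% at Eya1 and 29.8% at Meox2, while those at Pax3 and Eya2 did not move. The covered length was nevertheless large in most of the group. Spin1 occupied 10566 bp at Pax7, 8707 bp at Lbx1, 5071 bp at Eya4 and 4856 bp at Six2, against a median width of 2227 bp for the Spin1 peaks at promoters.

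**Figure D2:**
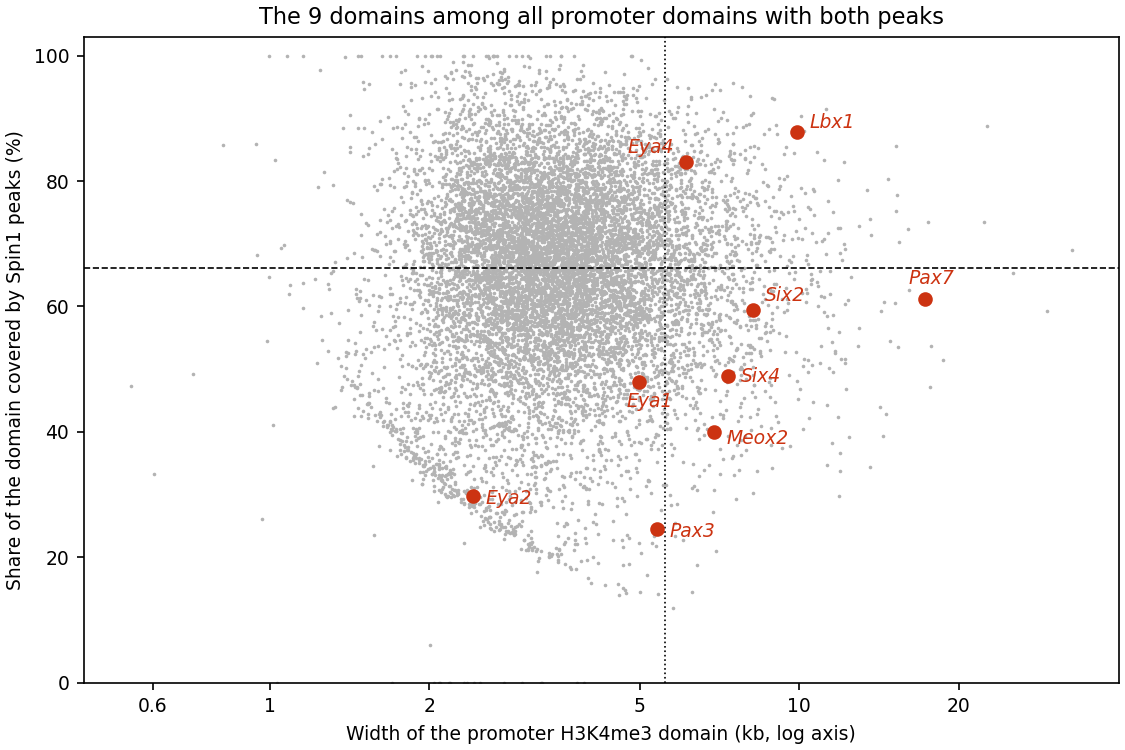
Width of the promoter H3K4me3 domain (kb, log axis) and share of it covered by Spin1 peaks (%), with 1 grey point for each of the 10719 promoter domains with both peaks and the 9 genes in red. The dotted line marks the start of the widest 10% at 5571 bp and the dashed line the median share of 66.1%. Pax3, Pax7, Six2, Six4, Eya1, Eya2 and Meox2 lie below the dashed line and Eya4 and Lbx1 above it.

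A domain with more than 1 Spin1 peak was uncommon over all genes. Pax7 held 6, Lbx1 held 3, and Eya4 and Meox2 held 2 each, so that 4 of the 9 domains had at least 2, whereas this was true of 8.97% (8.44 to 9.52%) of all promoter domains with Spin1. The number goes with width. In the widest 10% of the domains with Spin1 the share with at least 2 Spin1 peaks was 37.9% (490 of 1294). All 4 of these genes were among the 6 of the group in that widest 10%. The part of width in this count was not tested. The additional peaks had lower scores than the peak at the TSS. At Pax7 they scored 229.83 upstream and 103.35, 229.06, 102.78 and 676.39 downstream, at Eya4 135.01, at Meox2 160.87, and at Lbx1 1363.66 and 556.6.

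Taken over each whole domain, the part covered by Spin1 was richer in CpG than the rest, although the centers of some single Spin1 peaks were not. The covered part held more CpG per 100 bases than the part with H3K4me3 alone in 9 of 9 genes. This was true of 98.5% (98.2 to 98.7%) of the 9715 promoter domains with at least 500 bp in each part, so the group behaved as most promoters did. Eya2 had the highest density, with 10.85 CpG per 100 bases in the covered part and 2.60 in the rest. Six2 had 6.20 and 2.12, Lbx1 5.51 and 1.99, and Pax3 5.21 and 2.73.

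The values were 4.88 and 0.99 at Six4, 4.14 and 2.55 at Pax7, 3.77 and 1.16 at Eya4, 3.29 and 0.97 at Meox2, and 2.81 and 0.97 at Eya1. Over all domains the medians were 4.31 and 1.15. The ratio of the parts was smallest at Pax7 and Pax3. The part without Spin1 held more CpG than the corresponding median of all domains at Pax3, Eya2, Pax7, Six2, Lbx1 and Eya4. GC content moved in the same direction, from 42.5% in the covered part of Eya1 to 71.1% in that of Eya2, against 34.7 and 48.0% in the remainder. Whether read recovery from GC-rich fragments differed between the libraries was not tested.

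**Figure D3:**
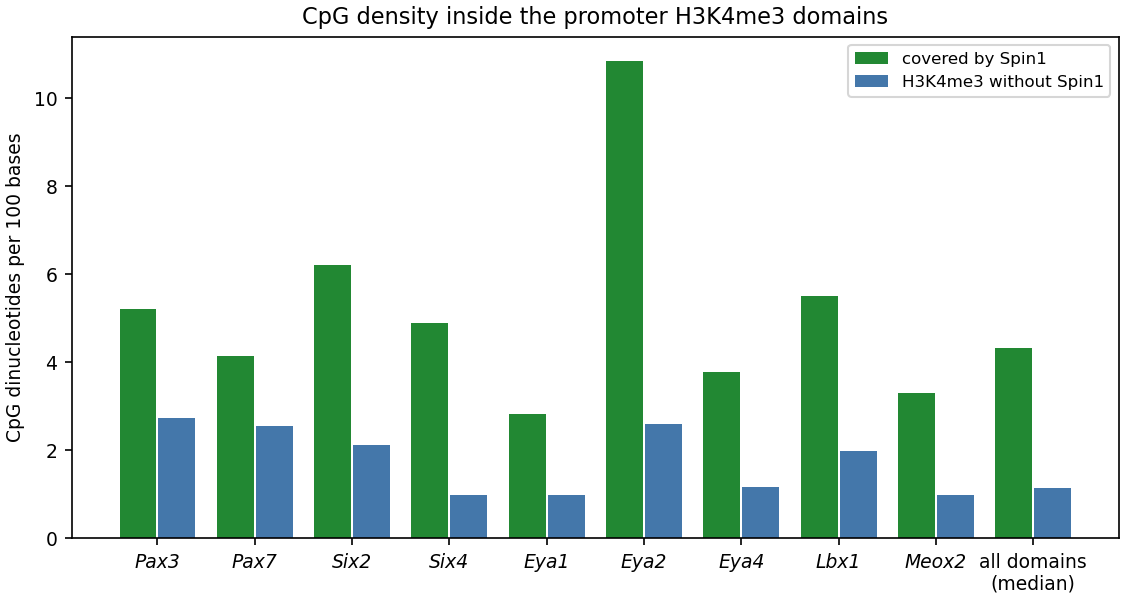
CpG dinucleotides per 100 bases in the part of each promoter H3K4me3 domain covered by Spin1 (green) and in the part with H3K4me3 only (blue), for the 9 genes and as the median over 9715 promoter domains. The green bar is the higher one in every gene, from 2.81 at Eya1 to 10.85 at Eya2.

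The density was not even over the Spin1 peaks of a domain. In the 300 bases at their centers, the additional Spin1 peaks of the Pax7 domain held 14, 20, 1, 3 and 4 CpG (from the one farthest downstream to the one upstream of the TSS), that of Eya4 held 3, that of Meox2 held 5, and those of Lbx1 held 9 and 12. At Pax7 the peaks centered 6430, 5473 and 3140 bp from the TSS, and at Eya4 the additional peak, thus lay over bases with fewer CpG per length than the part of the same domain without Spin1.

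Sequences of the Pax7, Six2 and Eya4 domains show the contrast for the Spin1 peak at the promoter only, and not for the additional peaks. For each, the 100 bases at the center of the Spin1 peak at the promoter and the 100 bases at the center of the longest stretch of H3K4me3 without Spin1 are shown. They lie outside exons and are written 5′ to 3′ in the direction of transcription (GRCm38.p6), with each CpG in capitals.
Pax7, intron 1, occupied by Spin1, chr4:139831754-139831853, minus strand: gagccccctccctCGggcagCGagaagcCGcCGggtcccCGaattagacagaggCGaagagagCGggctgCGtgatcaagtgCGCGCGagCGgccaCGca
Pax7, intron 4, H3K4me3 without Spin1, chr4:139825063-139825162, minus strand: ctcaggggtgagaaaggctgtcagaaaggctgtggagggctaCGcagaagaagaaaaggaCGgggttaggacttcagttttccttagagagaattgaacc
Six2, intron 1, occupied by Spin1, chr17:85687274-85687373, minus strand: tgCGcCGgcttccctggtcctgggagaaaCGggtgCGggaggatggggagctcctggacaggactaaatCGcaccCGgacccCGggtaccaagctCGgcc
Six2, outside the gene, H3K4me3 without Spin1, chr17:85683726-85683825, minus strand: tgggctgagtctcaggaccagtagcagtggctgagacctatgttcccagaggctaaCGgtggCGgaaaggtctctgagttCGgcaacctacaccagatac
Eya4, intron 1, occupied by Spin1, chr10:23349237-23349336, minus strand: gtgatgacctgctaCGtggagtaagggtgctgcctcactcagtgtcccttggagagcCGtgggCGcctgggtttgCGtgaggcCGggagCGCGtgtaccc
Eya4, intron 1, H3K4me3 without Spin1, chr10:23345697-23345796, minus strand: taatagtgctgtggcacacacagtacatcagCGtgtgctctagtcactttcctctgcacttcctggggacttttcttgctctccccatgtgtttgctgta

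The Pax7 stretches held 13 CpG inside the Spin1 peak and 2 outside, those of Six2 held 8 and 3, and those of Eya4 held 7 and 1. All 6 stretches lay under H3K4me3. They are single examples of the densities above.

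Beyond the promoters, the gene bodies with 100 kb on each side held 65 H3K4me3 peaks and 31 Spin1 peaks. The number per gene was 7 H3K4me3 peaks and 3 Spin1 peaks as medians of the 9 genes, against 5 and 3 over all protein-coding genes. Gene length moved with this, since a longer gene has a larger window and the median length was 94888 bp in the group and 16724 bp over all protein-coding genes. Its part was not tested. Lbx1 had the most H3K4me3 peaks, 14, although its gene is only 4158 bp long, and Eya1 the fewest, 2.

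H3K4me3 peaks away from any annotated promoter mostly lacked Spin1, as they did in the genome. There were 44 of them, of which 6 overlapped a Spin1 peak, beside 17.6% (17.0 to 18.2%) of the 16158 such H3K4me3 peaks in the genome. The 6 with Spin1 had a median width of 2010.5 bp and a median score of 1485.1, and the 38 without had 1081.5 bp and 224.4. The peaks without Spin1 were thus weaker and narrower in the median, and the part of peak strength in the overlap was not tested. Some of the peaks without Spin1 were nevertheless strong.

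At Eya1, an H3K4me3 peak of 3627 bp with a score of 3100 followed the promoter domain after 216 bp and had no Spin1 peak. Upstream of Pax3, a peak of 2147 bp centered 6500 bp before the TSS also reached 3100 without Spin1, and so did a peak of 1602 bp centered 15556 bp downstream of the Lbx1 TSS. Around Six2, 6 H3K4me3 peaks at no promoter and the promoter peaks of Six3 and Six3os1 had no Spin1, which left the Six2 promoter as the only Spin1 site of that locus. The locus of Lbx1 was alike in this respect, with 11 H3K4me3 peaks at no promoter and none of them with Spin1. Over the genome only 17.6% of such peaks overlapped Spin1, so a lack of Spin1 was their usual state.

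Inside the long genes, H3K4me3 peaks without Spin1 were scattered over the introns. Eya4 had such peaks in intron 2 (score 604.52, 64364 bp from the TSS) and in intron 3 (238.95 at 146255 bp and 501.94 at 172801 bp), and a further one with a score of 2131.55 lay beyond its 3′ end. The intron 3 peak with 501.94 lay 347 bp from the small H3K4me3 peak there that did overlap Spin1. At Meox2, a peak of 1624 bp with a score of 873.09 followed the promoter domain after 110 bp, within intron 1, and a weaker one of 80.38 lay farther in. In intron 1 of Eya2 the scores were 113.89 and 96.49, and neither peak lay within 1 kb of the TSSs inside the gene. Pax7 had H3K4me3 peaks without Spin1 in intron 4 (150.17) and intron 7 (50.14), close to the lowest score in the list, 50.03. The peak in intron 7 is thus near the limit at which peaks were called.

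Spin1 peaks away from promoters numbered 17, and 15 of them overlapped an H3K4me3 peak, beside 72.6% (71.3 to 73.7%) of the 5309 such Spin1 peaks in the genome. Of the 15, 9 lay in the promoter domains of Pax7, Eya4, Lbx1 and Meox2 described above. The peaks without H3K4me3 were weak. At Pax3 such a peak lay beyond the 3′ end, centered 136664 bp downstream of the TSS, with a score of 190.27. At Eya2 it lay 24843 bp upstream with a score of 92.93.

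Pax3 had a second occupied site in intron 4, where a Spin1 peak of 1048 bp with a score of 246.21 lay inside an H3K4me3 peak of 2197 bp (score 3100), centered 7438 bp downstream of the TSS. The 300 bases at its center held 34 CpG and were 72.3% GC. Eya4 had a weak site in intron 3, 171244 bp from its TSS, with scores of 198.84 for Spin1 and 74.45 for H3K4me3. Beyond the 3′ end of Pax7, a Spin1 peak with a score of 118.07 overlapped an H3K4me3 peak with a score of 263.27, centered 134804 bp from the TSS.

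The Spin1 peak with the highest score among the 17 away from promoters lay in the locus of Six4. Downstream of this gene, an H3K4me3 peak of 5048 bp at no annotated promoter (score 3100) was covered to 74.8% by Spin1 peaks of 3140 bp (score 3100) and 751 bp (133.95), whose centers lay 59723 and 62275 bp from the Six4 TSS. This H3K4me3 peak lay only 949 bp from an H3K4me3 domain at the promoter of another gene, which is not reported here. Upstream of Six4, the promoter of Mnat1, a subunit of the CDK-activating kinase, carried both marks as well, with a Spin1 peak of 1743 bp and a score of 1891.04.

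**Figure D4:**
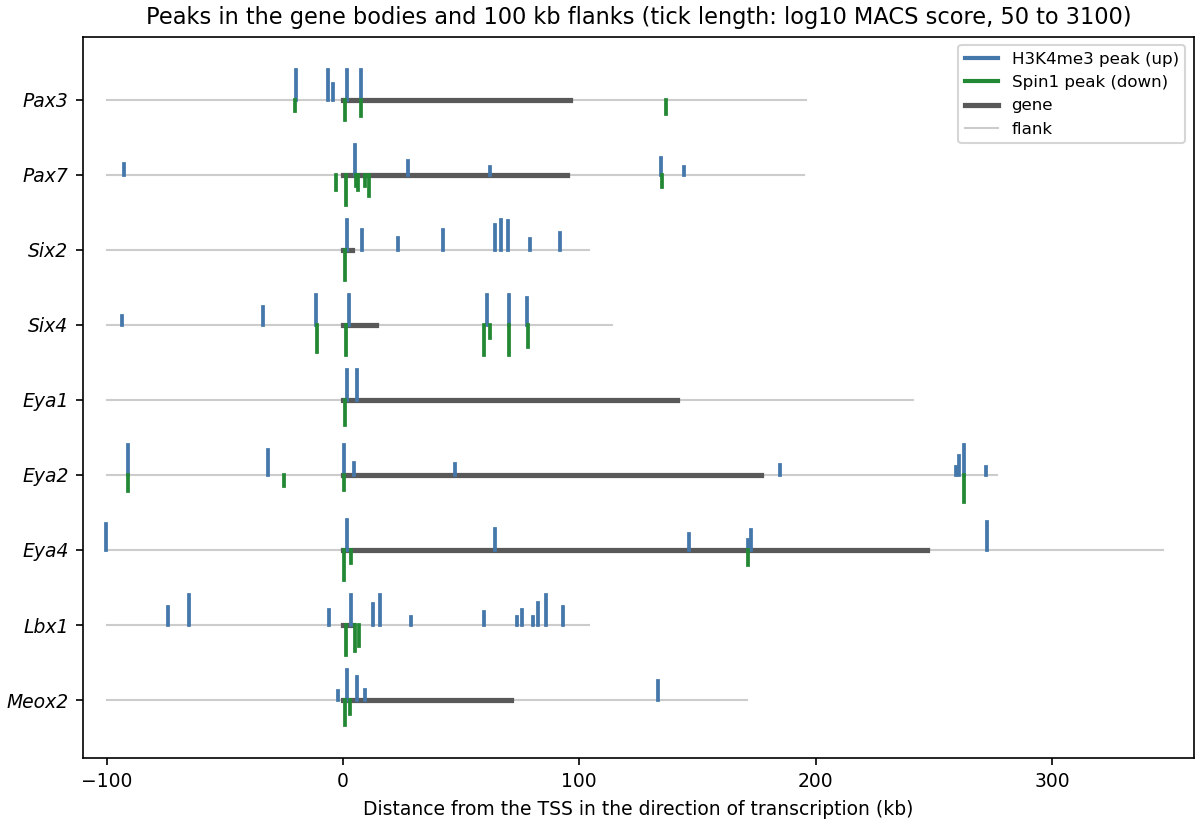
Peaks in the gene bodies and 100 kb flanks of the 9 genes, with distance from the TSS in kb, H3K4me3 as ticks up and Spin1 as ticks down, and tick length following the log10 of the MACS score. Spin1 ticks gather at the TSS, and the surroundings of Six2 and Lbx1 show H3K4me3 ticks with no Spin1 tick below them. Over the genome 17.6% of H3K4me3 peaks at no promoter overlapped Spin1.

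Motifs were counted on both strands in 300 bases, in RefSeq promoters and at the centers of Spin1 peaks. CAGCTG, an E-box of myogenic bHLH factors, was in 0 of 7 promoters of Pax7, Six2, Six4, Eya4 and Meox2 and in 16.3% of all promoters. These 7 are not independent, since the windows of neighbouring TSSs overlap at Six4 and at Eya4. CAGCTG was also at the center of 5 of the 31 Spin1 peaks in the loci and of 16.8% of all Spin1 peaks. TCAGGTT, the core of the MEF3 element, to which Six4 binds, was in 1 of 7 promoters, at Six4, and in 4.07% of all, and in 1 of the 31 peaks and 3.51% of all. GTCACGC, a core of paired-domain sites, was in none of the 7 promoters or 31 peaks, against 2.09% of all promoters and 2.06% of all peaks. None of the 3 motifs contains another. The match at a peak was the weak Spin1 site in intron 3 of Eya4, and its 60 bases are shown with the motif in capitals because no other Spin1 peak center of these loci held these letters.
Eya4, intron 3, chr10:23178632-23178691, minus strand: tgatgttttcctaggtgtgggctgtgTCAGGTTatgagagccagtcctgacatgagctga

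The same gene families contain members with another pattern. Of 15 paralogues (Pax1, Pax2, Pax4, Pax5, Pax6, Pax8, Pax9, Six3, Six5, Six6, Eya3, Dach1, Dach2, Lbx2 and Meox1), 14 had H3K4me3 at the promoter but only 5 had Spin1 as well. These were Pax2, Pax6, Six5, Eya3 and Dach1. H3K4me3 alone was found at Pax1, Pax5, Pax8, Pax9, Six3, Six6, Dach2, Lbx2 and Meox1, and Pax4 had neither. Over all protein-coding genes the shares were 68.0% with H3K4me3, 56.7% with both peaks and 11.3% with H3K4me3 alone. As the 9 genes were chosen with results of these data known, this contrast is a description.

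Within families, Lbx1 had an H3K4me3 domain of 9912 bp and Spin1, whereas Lbx2 had a domain of 1989 bp and no Spin1 peak. Meox2 and Meox1, the latter a gene of the early somite, had domains of 6907 and 1544 bp, and Meox1 had no Spin1. Pax6, a gene of eye and brain, had a domain of 4527 bp of which Spin1 covered 29.5%, a share close to that at Pax3. Pax2, a gene of kidney and ear, was similar with 3322 bp and 29.9%. Six5 had the widest domain of the 15, 7168 bp, covered to 35.7%, and Eya3 had the largest covered share, 67.6% of 3168 bp.

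**Figure D5:**
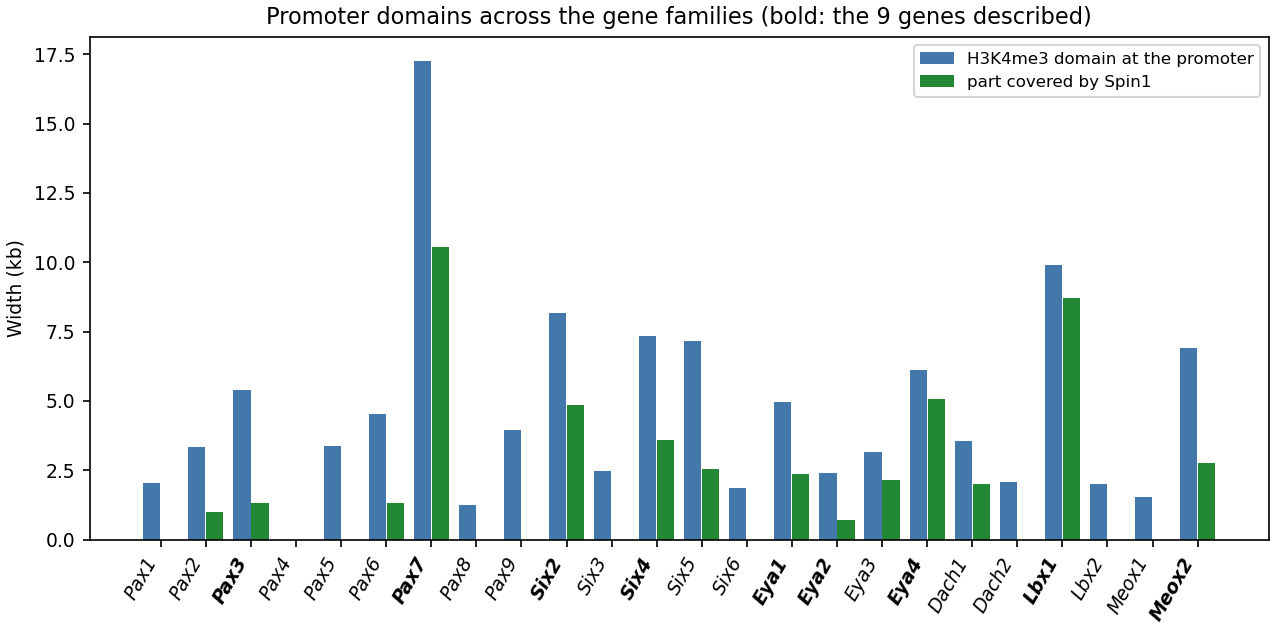
Width in kb of the H3K4me3 domain at the promoter (blue) and of the part covered by Spin1 (green) for the paralogues of all 6 families, with the 9 genes described here in bold. Pax7, Lbx1 and Six2 have the widest domains, of 17266, 9912 and 8161 bp, and 9 paralogues have a blue bar and no green one.

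A further list held 18 genes of mesoderm, muscle precursors or muscle formation, only some of them partners or targets of the 9 regulators. Of the 18, 17 had H3K4me3 at the promoter and 14 had Spin1 too. The shares were 68.0 and 56.7% over all protein-coding genes and, for both peaks, 86.7% over those as rich in CpG as Meox2 or richer. Met, the receptor needed for migration of limb precursors and a target of Pax3, had a domain of 4517 bp covered to 53.5%. Cxcr4, a receptor of the same migrating cells, had 5548 bp and 77.7%, and Dmrt2, a Pax3 target, had 6171 bp and 53.0%. Itm2a, another Pax3 target, had the lowest share of the 14, 23.2%. Myf5 and Myod1, the myogenic bHLH factors downstream of the network, had 35.8 and 77.9%, and Myog had 94.5%. H3K4me3 without Spin1 was found at Myf6, Tcf21 and Tbx6, and Msgn1, a gene of the presomitic mesoderm, had neither. Tcf21 is also among the fibroblast or mesenchyme markers below.

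The labelled cell type was checked against marker promoters. All 8 myoblast markers (Myod1, Myf5, Des, Cdh15, Itga7, Chrna1, Vcam1 and Sdc4) carried both peaks. The share with both was 56.7% over all protein-coding genes and 86.7% over those as rich in CpG as Meox2 or richer. Both peaks were also found at 2 of 6 fibroblast or mesenchyme markers (Pdgfra and Osr1) and 1 of 3 neuron or Schwann cell markers (Tubb3), and at 0 of 5 endothelial, 0 of 5 leukocyte and 0 of 3 adipocyte markers. The Spin1 scores were 2392.84 at Pdgfra, 1832.36 at Osr1 and 707.08 at Tubb3, beside 1494.67 (Myf5) to 3100 at the myoblast markers. The H3K4me3 domain of Pdgfra, 11546 bp, was wider than those of all 8 myoblast markers, and that of Osr1, 4857 bp, was narrower. H3K4me3 alone was present at 4 endothelial markers, with scores from 246.19 at Cdh5 to 3100 at Kdr, at Cd68 among the leukocyte markers with 51.78, and at Fabp4 among the adipocyte markers with 300.27. It was also present alone at the fibroblast markers Thy1 (2065.11) and Tcf21 (70.84) and at the neuron or Schwann cell markers Sox10 (1994.85) and Rbfox3 (1557.77), so that all 3 markers of the latter list carried H3K4me3. At Sox10 this holds within TSS±1 kb only, since Spin1 outside that window covered 19.7% of the same H3K4me3 peak. Some fibroblasts can remain after preplating, and their part in the peaks at the 9 genes was not tested. In such a mixture, a peak of few cells and a weaker peak of all cells cannot be told apart.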

How the data were processed

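The peak lists of 2 ChIP-seq samples of primary myoblasts, out of 25 samples in the series, entered the analysis. Input DNA and 22 RNA-seq samples were not analysed here. Per the study's methods and the submitters' processing notes, reads were mapped to mm10 with Bowtie2 and peaks were called with MACS 1.4.2 against input at a false discovery rate of 1%. The authors deposited each peak's position and its score, the negative log10 of the p-value multiplied by 10. The lists hold no read counts, so depth is unknown, and weak or narrow peaks of a shallow library would be missing.

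Peaks were compared with 45756 curated transcripts of RefSeq annotation release 108.20200622, which has 16 transcripts with 13 TSSs for the 9 genes. Coordinates count from 1. A promoter was TSS±1 kb, a locus the gene with 100 kb on each side, and an overlap 1 bp or more. Each gene's domain was the widest H3K4me3 peak at its promoter, and its Spin1 peak the widest there. Distances are from the TSS of the RefSeq Select transcript. Percentiles are over protein-coding genes, and an H3K4me3 domain shared by several genes was counted once. CpG was counted on the reference, and parts under 500 bp were left out of the background. All 9 genes, the paralogues, partners and markers, and other genes only where a peak lay at their TSS in a locus, were named, and some genes of these lists are not reported here. The genes and lists were chosen with earlier results of these data known.

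Alternatives were a promoter window of 0.5 or 2 kb on either side, a window that ended 0.1 kb after the TSS, the RefSeq Select transcript alone, a minimum score of 100, the upper 50% of each list by score, assignment by peak center, flanks of 50 and 200 kb, and 50% coverage as the overlap. Joining H3K4me3 peaks less than 500 bp apart was added after seeing the data. The overlap code was tested on simulated data. Python 3.11.15, NumPy 2.4.6, pandas 2.3.3, SciPy 1.17.1, pysam 0.24.0, samtools 1.23.1 and matplotlib 3.10.9 were used.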

Additional observations from a re-analysis of the deposited data

How the results depend on the processing

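The count of promoters with both peaks stayed at 9 under all 3 other windows, with the RefSeq Select transcripts alone and with a minimum score of 100. With the upper 50% of each list by score, Pax3, Eya2 and Meox2 lost Spin1, which left 6 promoters with Spin1 and 3 with H3K4me3 only. When a peak center had to lie within the window, 1 promoter (Eya2) kept H3K4me3 and 1 kept both, because the centers of wide domains lie more than 1 kb inside the gene, and Pax7, Six4 and Lbx1 lost Spin1. In the loci, flanks of 200 kb gave 50 Spin1 peaks, 99 H3K4me3 peaks and 4 Spin1 peaks without H3K4me3, flanks of 50 kb gave 40 H3K4me3 peaks, and the upper 50% of each list gave 11, 25 and 0. Of 46 alternatives for 9 results, 36 kept a count within 1.5 times its value or left the median share as it was, and these include the falls from 9 to 6 promoters with Spin1 or with both peaks and that from 65 to 50 H3K4me3 peaks with a minimum score of 100. Joining H3K4me3 peaks less than 500 bp apart, an alternative added after seeing the data, put 7 genes in the widest 10% and left the median share at 48.9%, while the share fell from 47.9 to 27.0% at Eya1 and from 40.0 to 29.8% at Meox2. No paired analysis was possible because each antibody gave a single library without replicates. With unknown depth, an absent peak does not show absent Spin1.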
